A study of Persea americana and Macadamia integrifolia and Mangifera indica with 6 samples.

Results

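Mature and juvenile leaves of mango (cv. Kensington Pride) were compared by small RNA sequencing, with 1 library per age among the 6 libraries of a series that also holds avocado and macadamia. The mature library came from already flowering field trees of 5 years that had grown from seed and were not grafted. The juvenile library came from glasshouse seedlings of 1 month raised from seeds of market fruit. Both were made from youngest fully expanded leaves. The labels describe 15 leaf positions on each of 3 mature trees without naming the pool that was sequenced. The study's methods also name 6 mature mango trees, and 20 plants for the seedling ages. The number of plants behind each library is therefore not known. Age and growing conditions differed together and cannot be told apart. All entries of the deposited values were used, without regard to their levels: 123 entries of known Arabidopsis and rice miRNAs, of which 53 had distinct values (hereafter distinct sequences) in 20 families. The values hold no marker of a leaf cell type, so the tissue label was not checked against the data.

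Plant miRNAs are cut from hairpin precursors, and the loaded strand guides the cleavage or repression of transcripts with a matching site, many of which encode transcription factors. In the age pathway, miR156 and the related miR157 repress SPL transcription factors and keep a plant juvenile, while miR172 represses AP2-like floral repressors. The pathway was worked out mostly in Arabidopsis and maize and is followed in trees as a marker of juvenility. The forward primers that the study designed from mature miRNAs give the sequences below for 6 families, and they are shown because they include the age pathway regulators miR156 and miR172 and the most abundant families at both ages, miR159 and miR396. No sequence is printed for the other families. Capitals mark the seed, bases 2 to 8 from the 5′ end.
miR156: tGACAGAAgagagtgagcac
miR172: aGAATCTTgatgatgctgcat
miR159: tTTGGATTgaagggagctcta
miR396: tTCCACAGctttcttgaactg
miR394: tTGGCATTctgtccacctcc
miR164: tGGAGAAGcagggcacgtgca
The 6 seeds were all distinct, 2 of the primers had 20 bases and 4 had 21. The deposited values do not pair a primer with a single entry, so each sequence stands for its family and not for a value given below.

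Values are RPM, reads scaled to 1000000 reads of 20 to 24 nt. Depth was 4516161 reads of this length in the mature library and 1141472 in the juvenile library, against 1717832 to 7509125 in the other 4. A floor of 3 reads therefore lay at 0.664 RPM in mature and 2.63 RPM in juvenile leaves. With 1 library per age no spread between plants was measured and no test was made. The exact (Clopper-Pearson) 95% intervals given here cover counting error only, and reads counted after PCR without molecular identifiers are not independent molecules.

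The listed miRNAs took a larger part of the small RNAs in mature leaves, and the excess of miR159 alone was slightly larger than that of all listed miRNAs. miR159 represses GAMYB-like MYB transcription factors. Listed miRNAs made up 16.6% of the 20 to 24 nt reads in mature leaves (interval 16.59 to 16.66) and 7.77% in juvenile leaves (7.72 to 7.81). miR159 alone gave 120938 RPM in mature and 31814 RPM in juvenile leaves, which is 3.80-fold higher (3.76 to 3.84). The other families together summed to 45338 RPM in mature and 45840 RPM in juvenile leaves, a ratio of 0.989 (0.980 to 0.999). The sum of all listed miRNAs was thus 88622 RPM higher in mature leaves, beside 89124 RPM for miR159.

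**Figure D1:**
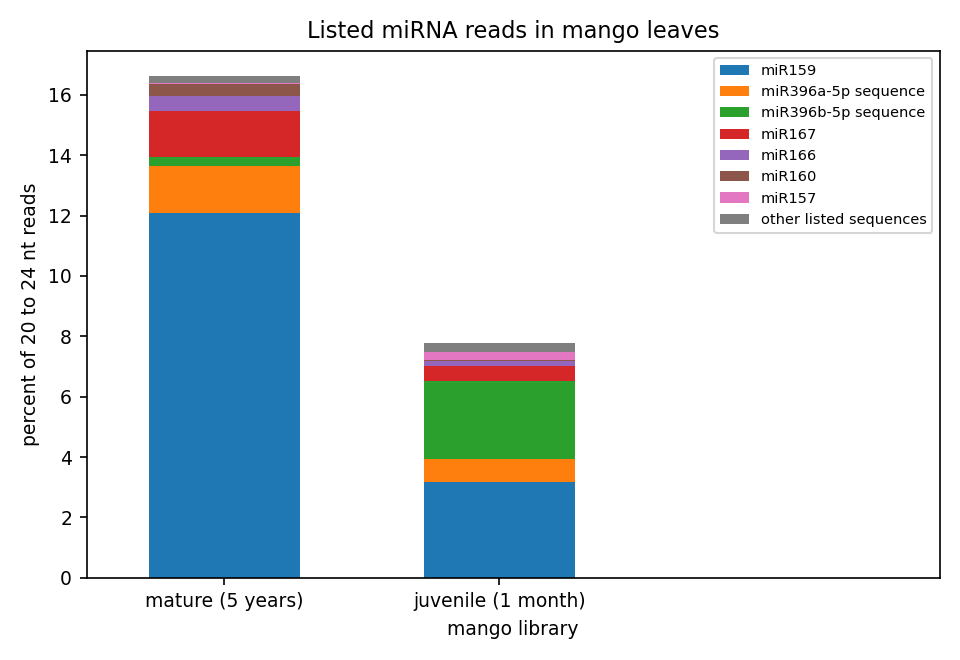
Percent of the 20 to 24 nt reads (y axis) taken by listed miRNAs in the mature (left) and juvenile (right) mango library, stacked by family, with the main miR396 sequences drawn apart. The bars reach 16.6% in mature and 7.77% in juvenile leaves, with miR159 at 12.1% in mature and 3.18% in juvenile leaves.

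The near-equal sums hid an exchange between the remaining families. miR396, which represses the growth-regulating factors (GRF) of leaf expansion, had 18522 RPM in mature and 33405 RPM in juvenile leaves. Without miR159 and miR396, the remaining families summed to 26809 RPM in mature and 12423 RPM in juvenile leaves, 2.16-fold higher (2.12 to 2.20). miR396 took 11.1% of the listed miRNA reads in mature and 43.0% in juvenile leaves, and 40.9% in mature and 72.9% in juvenile leaves when miR159 was left out of the total. The ratio of miR159 to miR396 reads, which does not depend on library scaling, was 6.53 (6.48 to 6.58) in mature and 0.952 (0.939 to 0.966) in juvenile leaves.

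With miR159 counted, the mature profile was concentrated in fewer families. miR159, miR396 and miR167 held the first 3 ranks at both ages, led by miR159 in mature and by miR396 in juvenile leaves. Together they held 93.1% of the listed miRNA reads in mature and 90.5% in juvenile leaves. The effective number of families was 2.62 in mature and 3.66 in juvenile leaves. It is the exponential of Shannon's index, the number of equally abundant families with the same diversity. miR159 alone held 72.7% of the listed miRNA reads in mature and 41.0% in juvenile leaves. Without miR159, the leading share was smaller in mature leaves, with miR396 at 40.9% of the rest in mature and 72.9% in juvenile leaves. Of the 5 most abundant families, 4 were shared, with miR160 at rank 5 in mature leaves and miR157 at rank 4 in juvenile leaves as the unshared ones. Among the 16 families with at least 10 RPM at either age, 6 differed by 3 or more ranks: miR157, miR160, miR162, miR393, miR394 and miR398.

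Families were counted as different at 2-fold on the log2(RPM + 1) scale, which understates the ratio of low families. Of the 16 families past 10 RPM, 5 were higher in mature leaves (31.2%), 6 were lower (37.5%) and 5 were within 2-fold, with a median log2 ratio of -0.05. The higher families were miR159, miR160, miR162, miR166 and miR167, and the lower families were miR157, miR164, miR171, miR390, miR393 and miR394. Scaled to the listed miRNA reads instead of all 20 to 24 nt reads, log2 ratios move by about -1.10 (miR162, at 0 juvenile reads, keeps its value), and 2 families were higher and 8 lower. miR156 and miR396 are the families added to the lower ones, at log2 ratios of -1.65 and -1.95. The counting interval of the ratio excluded 1 in all 16 families, which says nothing of the spread between trees. The threshold passed between neighbours, since miR164 lay just past it at a log2 ratio of -1.02 and miR172 just short of it at 0.88. miR319, miR395, miR399 and miR408 stayed below 10 RPM at both ages.

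**Figure D2:**
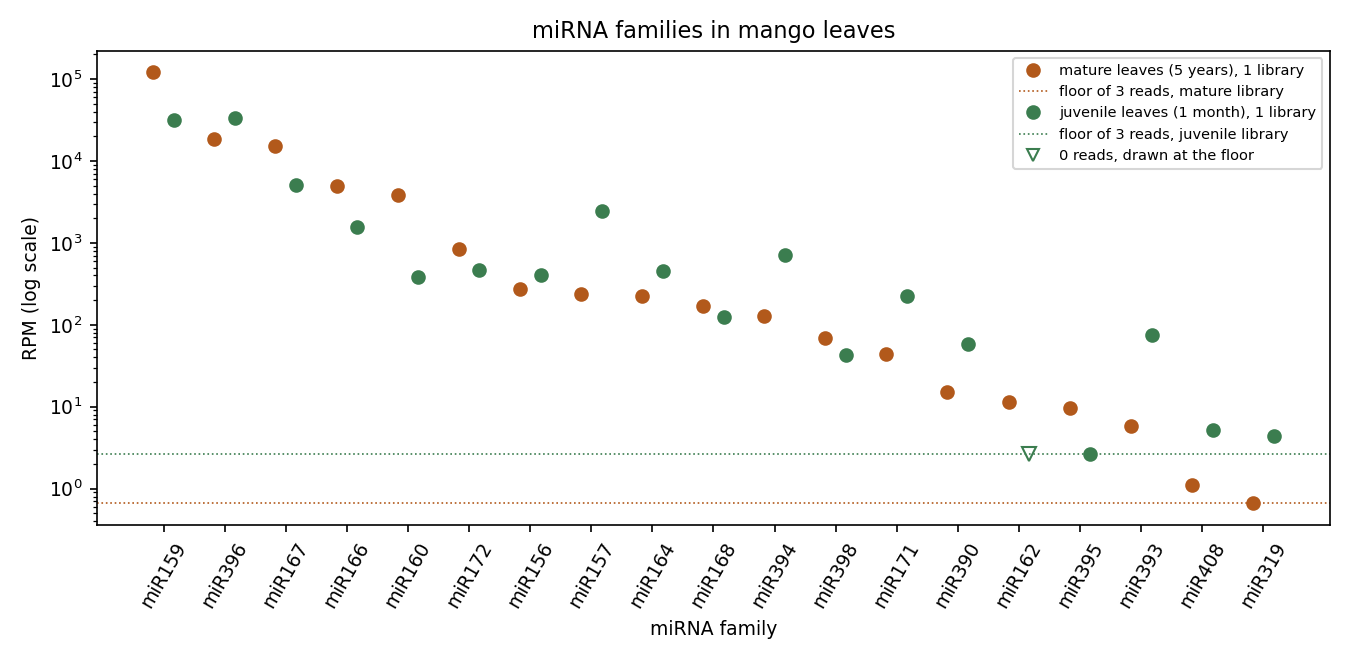
RPM (log axis) of the 19 mango families with reads, in mature (left point of each pair) and juvenile (right point) leaves, 1 library each, ordered by the mature level. Dotted lines mark the floor of 3 reads, 0.664 RPM in mature and 2.63 RPM in juvenile leaves, and the open triangle is miR162, which had 0 juvenile reads.

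Among the 53 distinct sequences, 34 had reads at both ages, 10 in mature leaves only, 2 in juvenile leaves only and 7 at neither age. The mature library was 3.96 times as deep, and 8 of the 10 sequences read there only would have given at most 1.52 reads at the juvenile depth. The exceptions were the miR162b-3p and miR172e-3p sequences. Of 29 sequences past 10 RPM, 11 were at least 2-fold higher in mature leaves (37.9%) and 9 were lower (31.0%), with a median log2 ratio of 0.45.

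In the age pathway, the age ratio was larger for miR157 than for miR156. miR157 had 239 RPM in mature and 2480 RPM in juvenile leaves, 10.4-fold lower in mature (9.67 to 11.1), and ranked 8 in mature and 4 in juvenile leaves. miR156 had 273 RPM in mature and 400.4 RPM in juvenile leaves, 1.47-fold lower (1.32 to 1.64), a log2 ratio of -0.55 that becomes -1.65, past 2-fold, when scaled to the listed miRNA reads. Summed, they gave 512 RPM in mature and 2880 RPM in juvenile leaves, 5.63-fold lower (5.33 to 5.94). Of the 3 families of this pathway 1 was at least 2-fold lower and none was higher, beside 37.5% lower and 31.2% higher of all families, with a median log2 ratio of -0.55 against -0.05 for all 16.

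The balance within the pair turned over. miR157 gave 46.7% of the miR156 and miR157 reads in mature and 86.1% in juvenile leaves, a ratio of miR157 to miR156 of 0.877 (0.807 to 0.952) in mature and 6.19 (5.61 to 6.85) in juvenile leaves. Both miR157 sequences were low in mature leaves. The miR157a-5p sequence had 213 RPM in mature and 1961 RPM in juvenile leaves (9.19-fold lower), and the miR157d sequence, an Arabidopsis form shortened at its 5′ end, had 25.7 RPM in mature and 520 RPM in juvenile leaves (20.2-fold lower, 16.6 to 24.9). Nearly all miR156 reads came from the sequence shared by 16 entries, with 272 RPM in mature and 397 RPM in juvenile leaves.

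miR172 had 852 RPM in mature and 461 RPM in juvenile leaves, a log2 ratio of 0.88. It becomes -0.21 when scaled to the listed miRNA reads and 1.02 when scaled to the 20 to 24 nt reads other than miR159. Its main sequence, shared by miR172a and 3 other entries, had 838 RPM in mature and 461 RPM in juvenile leaves (1.82-fold higher). The miR172e-3p sequence had 60 reads (13.3 RPM) in mature and 0 reads in juvenile leaves, where 15.2 reads would be expected at the mature level. This is 5.06-fold higher against the floor of 3 juvenile reads, with a lower counting limit of the ratio of 3.99. Within a library, miR156 and miR157 together were 0.601 times as abundant as miR172 in mature leaves (0.571 to 0.633) and 6.25 times in juvenile leaves (5.70 to 6.87). miR156 alone was 0.320 times as abundant as miR172 in mature and 0.869 times in juvenile leaves.

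miR159 rested on a single sequence at both ages. The Arabidopsis miR159a sequence gave 119798 RPM in mature and 31534 RPM in juvenile leaves (3.80-fold higher), 99.1% of the family at both. The miR159b-3p sequence had 958 RPM in mature and 217 RPM in juvenile leaves (4.41-fold higher, 3.88 to 5.03), and rice miR159f had 129 RPM in mature and 23.7 RPM in juvenile leaves (5.46-fold higher, 3.71 to 8.35). The rice miR159a.1 sequence differed less, at 51.2 RPM in mature and 39.4 RPM in juvenile leaves (1.30-fold, 0.939 to 1.83). miR319, which represses TCP transcription factors of leaf growth and is related to miR159 in sequence, had 3 reads in mature and 5 reads in juvenile leaves.

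The auxin families differed in direction. miR160 and miR167, which repress auxin response factors (ARF), were higher in mature leaves, and miR390 and miR393 were lower. miR160 had 3889 RPM in mature and 387 RPM in juvenile leaves, 10.0-fold higher (9.14 to 11.1). This value is all from rice miR160f-5p, the only 5p entry listed for the family. miR167 had 15327 RPM in mature and 5052 RPM in juvenile leaves, 3.03-fold higher (log2 ratio 1.60). The miR167a-5p sequence gave nearly all of it, and the rice miR167d-5p sequence had 28.8 RPM in mature and 14.9 RPM in juvenile leaves (130 mature and 17 juvenile reads). This left 2 of 4 auxin families higher and 2 lower, beside 31.2% and 37.5% of all families, with a median log2 ratio of -0.15.

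The lower auxin families were sparse. miR390, which triggers the trans-acting siRNAs that repress other ARF transcripts, had 15.1 RPM in mature and 58.7 RPM in juvenile leaves (68 mature and 67 juvenile reads), 3.90-fold lower. miR393, which represses the TIR1 and AFB auxin receptors, had 5.76 RPM in mature and 74.5 RPM in juvenile leaves (26 mature and 85 juvenile reads). Its Arabidopsis miR393a-5p sequence had 2 mature and 34 juvenile reads, 67.2-fold lower with a counting interval of 17.2 to 578. The rice miR393a sequence had 24 mature and 51 juvenile reads (8.41-fold lower, 5.08 to 14.3), so both sequences of the family were lower and the share of the Arabidopsis form was 7.69% in mature and 40.0% in juvenile leaves.

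Among families that act in leaf and organ development, miR166 was higher in mature leaves, miR164 and miR394 were lower, and miR396 lay within 2-fold. These calls, 1 of 4 higher and 2 of 4 lower, stand beside 31.2% higher and 37.5% lower of all families, and the median log2 ratio was -0.94 against -0.05 for all 16. miR166, which represses the HD-ZIP III factors of leaf polarity, had 4976 RPM in mature and 1574 RPM in juvenile leaves (3.16-fold higher, 3.01 to 3.32), and its rice miR166m sequence had 145 mature and 9 juvenile reads (4.07-fold higher, 2.09 to 9.08). miR394, which represses the F-box gene LCR of stem cell maintenance in Arabidopsis, had 127 RPM in mature and 705 RPM in juvenile leaves (5.57-fold lower) and ranked 11 in mature and 6 in juvenile leaves. miR164, which represses NAC factors of organ boundaries, had 224 RPM in mature and 456 RPM in juvenile leaves, nearly all from the miR164a sequence (1010 mature and 518 juvenile reads).

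The small family ratio of miR396 concealed opposite ratios of its sequences. The miR396a-5p sequence had 15404 RPM in mature and 7478 RPM in juvenile leaves, 2.06-fold higher (2.01 to 2.11). The miR396b-5p sequence had 3118 RPM in mature and 25927 RPM in juvenile leaves, 8.31-fold lower (8.15 to 8.48). The miR396b-5p sequence therefore made up 16.8% of the family's reads in mature (16.6 to 17.1) and 77.6% in juvenile leaves (77.2 to 78.0). The main sequence of the family was not the same at the 2 ages.

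**Figure D3:**
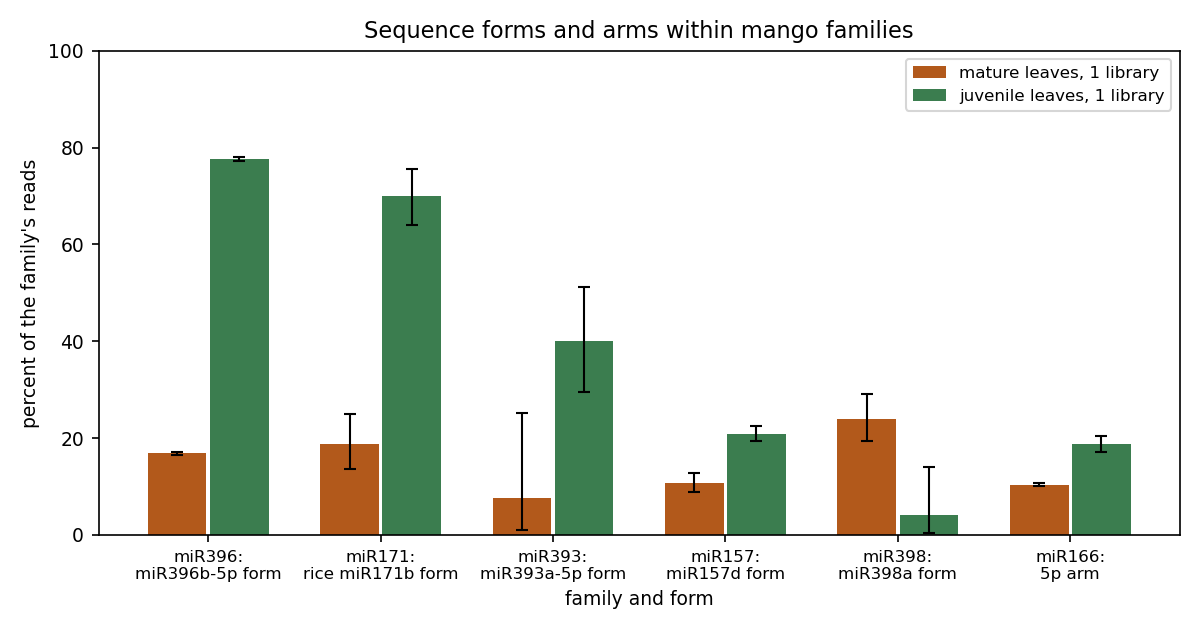
Percent of a family's reads (y axis) given by a named sequence or arm in mature (left bar) and juvenile (right bar) mango leaves, 1 library each, with exact 95% counting intervals. The miR396b-5p sequence gave 16.8% in mature and 77.6% in juvenile leaves. A single form or arm is drawn per family, and the direction of its difference depends on which form was drawn.

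miR171, which represses GRAS-domain HAM transcription factors, had 43.4 RPM in mature and 228 RPM in juvenile leaves. Its main sequence also differed between the ages, but both of its sequences were lower in mature leaves. The rice miR171b sequence had 8.19 RPM in mature and 159 RPM in juvenile leaves (37 mature and 182 juvenile reads), 19.5-fold lower (13.6 to 28.5). The Arabidopsis miR171b-3p sequence had 35.2 RPM in mature and 68.3 RPM in juvenile leaves, 1.94-fold lower (1.46 to 2.56). It gave 81.1% of the family in mature and 30.0% in juvenile leaves. Whether the counting placed any read under more than 1 related sequence was not tested.

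The listed entries of families that act on small RNA pathways and nutrients were of low abundance. miR168, which represses AGO1, has a 3p entry only among the listed ones, and its other arm was not counted. The 3p entry had 170 RPM in mature and 124 RPM in juvenile leaves (1.37-fold higher, 1.14 to 1.65). Its direction reverses when scaled to the listed miRNA reads (log2 ratio 0.45 against -0.64). These values give neither the level nor the direction of the other arm, and which arm represses AGO1 was not tested. miR162, which represses DCL1, had 51 reads (11.3 RPM) in mature and 0 reads in juvenile leaves, where 12.9 would be expected at the mature level. This is 4.30-fold higher against the floor, with a lower counting limit of the ratio of 3.37.

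miR398, which represses copper superoxide dismutases, had 69.1 RPM in mature and 42.9 RPM in juvenile leaves, a log2 ratio of 0.67 that becomes -0.41 when scaled to the listed miRNA reads. Its miR398a sequence had 75 mature and 2 juvenile reads (9.48-fold higher, 2.53 to 79.7), and the rice miR398b sequence had 237 mature and 47 juvenile reads (1.27-fold, 0.929 to 1.78). miR395, of sulphate assimilation, had 44 mature and 3 juvenile reads, and miR408, of copper proteins, had 5 mature and 6 juvenile reads. The phosphate-related miR399 had 0 reads at both ages, which allows up to 0.664 RPM in mature and 2.63 RPM in juvenile leaves. None of the sulphate and phosphate families passed 10 RPM.

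Of the 6 families with entries of both precursor arms, 3 (miR156, miR166 and miR396) had reads of both arms at both ages. The arm that is usually discarded was nearly absent in 2 of them. miR396-3p had 36 mature and 14 juvenile reads, and miR156-3p had 5 mature and 3 juvenile reads. Of the remaining 3 families, miR160-3p had 3 mature and 0 juvenile reads, and miR390-3p and miR162-5p had 0 reads at both ages. In miR166 this arm was abundant, with 574 RPM of the 5p arm in mature and 364 RPM in juvenile leaves. The 5p arm gave 10.4% of the reads of both arms in mature (10.0 to 10.8) and 18.8% in juvenile leaves (17.2 to 20.5). The rice miR166d-5p sequence was 1.58-fold higher in mature leaves (1.42 to 1.76), whereas the main 3p sequence was 3.15-fold higher (3.01 to 3.31).

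Some of the sparse sequences were far more abundant in another library of the series. Of the 46 sequences read in mango, 10 had fewer reads in both mango libraries than 1% of those in the highest other library, with at most 130 mature and 17 juvenile reads. The 51 mature reads of miR162b-3p stood beside 16520 reads in juvenile macadamia (0.309%). The 39 mature reads of the miR395a sequence stood beside 59620 in juvenile avocado (0.0654%). For the rice miR167d-5p sequence, 130 mature reads stood beside 86226 in mature avocado (0.151%). The part of reads from other libraries in these values was not tested. Under this rule miR162 is the only one of the 11 families past 2-fold that rests on such a sequence. Without miR162, 4 families were higher in mature leaves. The rule asks for both mango libraries, and miR171 has values under 1% in 1 of them. The 37 mature reads of rice miR171b stood beside 8446 in mature avocado (0.438%, juvenile 2.15%). For Arabidopsis miR171b-3p, 78 juvenile reads stood beside 8970 in mature avocado (0.870%, mature 1.77%). The part from other libraries was not tested for miR171 either.

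Mango differed from the other species in the levels and shares of some sequences, with all values side by side and no test of the difference. The miR167a-5p sequence made up 99.8% of the family in mature and 99.7% in juvenile mango, 0.211% in mature and 0.151% in juvenile avocado, and 40.9% in mature and 47.7% in juvenile macadamia. The miR160f-5p sequence had 3889 RPM in mature and 387 RPM in juvenile mango, 20.8 RPM in mature and 24.8 RPM in juvenile avocado, and 3.49 RPM in mature and 3.33 RPM in juvenile macadamia. The ratio of miR157 to miR156 reads was 0.877 in mature and 6.19 in juvenile mango, 0.630 in mature and 0.961 in juvenile avocado, and 0.935 in mature and 1.04 in juvenile macadamia.

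The share of miR396b-5p in its family was lower in mature leaves in every species, at 16.8% in mature and 77.6% in juvenile mango, 31.7% in mature and 40.8% in juvenile avocado, and 9.82% in mature and 22.4% in juvenile macadamia. The log2 ratios of miR159 were 1.93 in mango, -0.71 in avocado and -0.27 in macadamia. Those of miR156 were -0.55 in mango, -4.72 in avocado and -2.81 in macadamia, whereas those of miR157 were -3.37 in mango, -5.32 in avocado and -2.96 in macadamia.

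**Figure D4:**
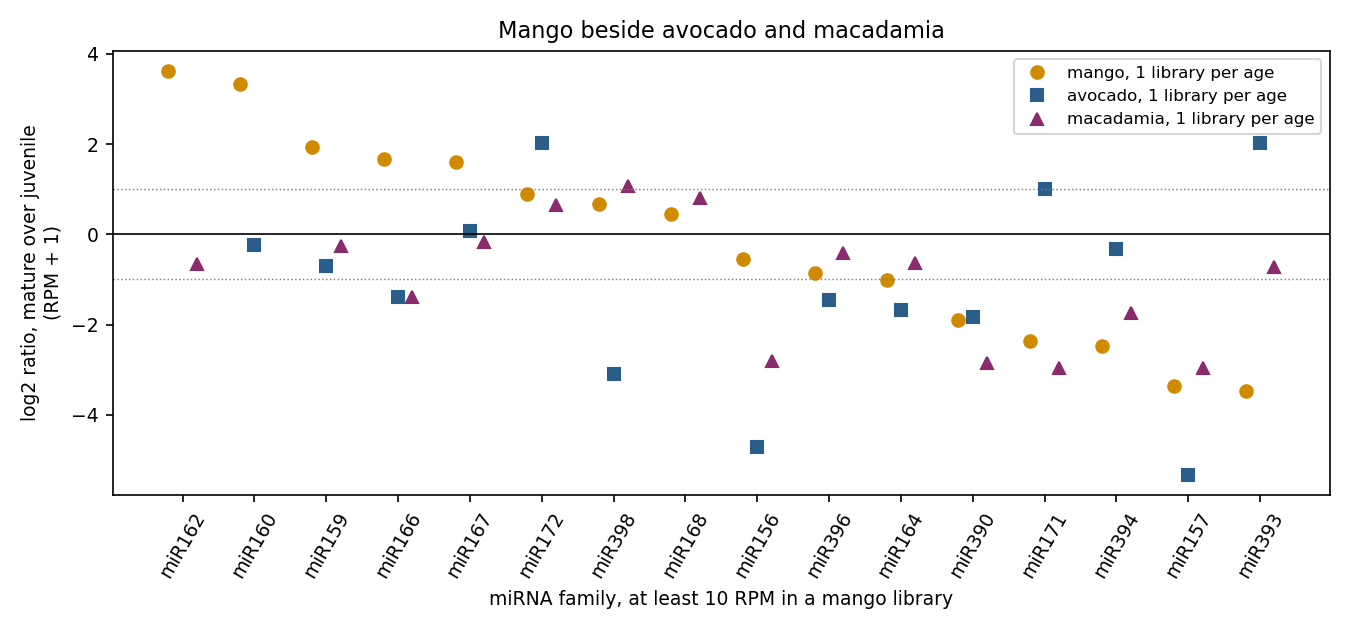
Log2 ratio of mature over juvenile leaves on RPM + 1 (y axis) for the 16 mango families past 10 RPM, in mango, avocado and macadamia, 1 library per age and species. Points are drawn only where the species has at least 10 RPM at either age, and dotted lines mark 2-fold. miR166 lies at 1.66 in mango, -1.39 in avocado and -1.40 in macadamia.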

How the data were processed

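The authors prepared libraries with the NEXTflex Small RNA-Seq Kit v3, trimmed adapters with Trim Galore, kept short reads, removed ribosomal reads with BBduk and counted the rest with SCRAM against miRBase miRNAs of Arabidopsis and rice. Tool versions: not given in the sources used here. Deposited values are RPM, scaled by the authors to the reads of 20 to 24 nt and given to 3 decimals. Sequences that differ from both reference species are not counted, and a value is a share of its library. The labels, not the values, gave species and age, and 0 columns were left unassigned.

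Where entries of 1 family had the same value in each of the 6 libraries, they were taken as 1 sequence. A family's value was the arm with the larger total plus entries that name no arm. Depth was the smallest number of reads that makes every value a whole number of reads within rounding, and was tested on simulated data. A whole multiple of it would fit as well, and would raise every read number, lower the floors and narrow the intervals. Ratios used RPM, and calls used log2(RPM + 1), a minimum of 10 RPM at either age and 2-fold. No test was possible with 1 library per age. The rule named every family with mango reads, its most abundant sequence, other sequences past 10 RPM and both arms where listed. For miR394, miR168 and miR408, which have 1 sequence each, and for miR319, below 10 RPM, only the family value is given. The members and the 9 lists (36 families, 20 in the values) were chosen with earlier results of these data known. None of the 12 families of the list of other conserved miRNAs was in the values. Python 3.11.15, numpy 2.4.6, pandas 2.3.3, scipy 1.17.1 and matplotlib 3.10.9 were used. Alternatives were other filters, thresholds, pseudocounts, scalings and family definitions. Scaling to the reads other than miR159 was added after seeing the data. The qRT-PCR measurements were not analysed here.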

Additional observations from a re-analysis of the deposited data

Results flagged for a closer look

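In 3 families the ratio of mature over juvenile leaves was at least 2-fold in mango and at least 2-fold the other way in another species. With 1 library per age and species, none of these differences was tested. miR166 had a log2 ratio of 1.66 in mango, against -1.39 in avocado (a difference of 3.05) and -1.40 in macadamia (a difference of 3.06). miR171 had -2.37 in mango and 1.00 in avocado, a difference of -3.37, and -2.97 in macadamia, the same direction as in mango. miR393 had -3.48 in mango and 2.02 in avocado, a difference of -5.50, and -0.71 in macadamia, and rests on 26 mature and 85 juvenile mango reads.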

How the results depend on the processing

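None of the 11 families past 2-fold changed direction in 88 pairs of family and alternative. Most of these pairs could not have changed it. A pseudocount cannot reverse a ratio, and each scaling moves the called ratios too little, or away from a reversal. The count is therefore little evidence of stability. A 4-fold threshold left 2 families and 6 sequences higher in mature leaves. Scaling to the listed miRNA reads left 2 families and 6 sequences higher, with 8 families and 12 sequences lower, and miR159, miR166 and miR167 then lay within 2-fold at log2 ratios of 0.83, 0.56 and 0.50, while miR156 and miR396 passed it at -1.65 and -1.95. A filter of 50 RPM left 7 sequences higher. Scaling to the 20 to 24 nt reads other than miR159, chosen after seeing the data, moved log2 ratios by about 0.14 (miR162 kept its value). It gave 6 families higher and 5 lower, with miR172 past 2-fold at 1.02 and miR164 within it at -0.88. Counting every entry instead of each distinct sequence once raised the share of listed miRNAs to 29.9% in mature and 16.3% in juvenile leaves, since repeated entries then count again. The juvenile depth limits sequences under 2.63 RPM. No paired analysis was possible because each age had 1 library.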

Other observations

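The reference species of the listed sequences differed in weight between the ages, mostly through single abundant sequences. Sequences listed for Arabidopsis only (18 sequences) held 72.9% of the listed miRNA reads in mature and 44.5% in juvenile leaves. The miR159a sequence alone held 72.0% in mature and 40.6% in juvenile leaves. The miR396b-5p sequence, listed for both species, held 1.88% in mature and 33.4% in juvenile leaves. Those listed for both Arabidopsis and rice (11) held 24.2% in mature and 54.1% in juvenile leaves, and those listed for rice only (24) held 2.88% in mature and 1.42% in juvenile leaves.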
